A study of Mus musculus with 4 samples.

Results

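Expression of 6 cell adhesion genes was followed over the 23 nucleus clusters of 4 mouse kidneys. They are Cdh1, Cdh2, Cdh6, Cdh11 and Cdh16, which encode cadherins, and Ctnnb1, which encodes beta-catenin. These 6 of the 19609 gene rows used were chosen by their cluster means in an earlier look at the same table, among them the higher Cdh1 with aristolochic acid I (AAI) in the second injured proximal tubule cluster. Levels over clusters, and that difference, are therefore a description. Single nuclei from the renal cortex were sequenced, with 1 male mouse of mixed strain in each of 4 conditions. The control mice (TRE-hKLF6) carried a human KLF6 transgene behind a doxycycline-responsive element without its driver, and the hKLF6 OE mice (CAG-rtTA,TRE-hKLF6) carried the CAG-driven transactivator too, which is active in all tissues and not in the tubule alone. All 4 mice ate a doxycycline diet of 200 mg/kg. Within each genotype, 1 mouse received a single dose of AAI at 2 mg/kg, a plant toxin that is taken up by the proximal tubule and damages DNA, and was studied 24 hours later, and the other received no AAI (vehicle, by the study's methods, and none by the labels). No age was given. No row of the table holds the human transgene, so genotype could not be checked, and mouse Klf6 was at 0.215 (Control), 0.406 (Control AAI), 0.137 (hKLF6 OE) and 0.327 (hKLF6 OE AAI) in normal proximal tubule.

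Cadherins are membrane proteins that hold neighboring cells together in the presence of calcium. Their tails bind beta-catenin, which links them through alpha-catenin to actin, and beta-catenin that is not bound or degraded can enter the nucleus and act with TCF factors on Wnt target genes. The nephron is known for using different cadherins along its length. E-cadherin (Cdh1) is typical of distal segments, N-cadherin (Cdh2) of the proximal tubule, cadherin 6 of the developing tubule, cadherin 11 of mesenchymal cells, and Ksp-cadherin (Cdh16) of tubule epithelium in general. In textbook accounts of epithelial injury, loss of E-cadherin accompanies loss of epithelial character.

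Each value, here called a level, is the authors' average of normalized expression within a single cluster and mouse, on a scale where all genes add up to 10000. Levels are compared within a gene only. Cluster names follow the study. They are proximal tubule S1 to S3 (PT-S1-S2, PT-S3), 2 injured proximal tubule clusters (InjuredPT-A, InjuredPT-B), descending and ascending limbs of the loop of Henle (LH-DL, LH-AL), distal convoluted tubule (DCT), connecting tubule (CNT), collecting duct principal cells (CD_PC), intercalated cells (IC), podocytes, mesangial cells (MC), endothelial cells (EC) and macrophages. Of 47 marker genes, 43 were highest in the cluster type they stand for. The exceptions were Tshz2, Scnn1g, Itga8 and Gata3. Of the mesangial markers only Pdgfrb was highest in its own cluster, so the name mesangial cells is uncertain. The injured clusters carried their injury markers only in the AAI-treated mice. The 4 injury markers (Cxcl1, Havcr1, Krt20 and Polr2a) summed to 29.3 (Control AAI) and 26.1 (hKLF6 OE AAI) in InjuredPT-A and to 8.96 and 12.1 in InjuredPT-B. Most of the InjuredPT-A sum was Polr2a (24.3 and 23.3), with Cxcl1 at 4.8 and 2.52 and Havcr1 and Krt20 at 0.139 or less. Polr2a was at 4.7 and 4.14 in InjuredPT-B. It was not particular to injured tubule, since mesangial cells of the AAI-treated mice held 5.39 and 4.44. In the mice without AAI the 4 markers summed to 1.9 (Control) and 0.837 (hKLF6 OE) in InjuredPT-A and to 1.16 and 1.7 in InjuredPT-B. This was near the 1.45 and 1.6 of normal proximal tubule, and Cxcl1 and Krt20 were at 0 in InjuredPT-A of both. The table gives no number of nuclei or depth for a level. The share of genes at 0 ran from 15.1% to 63.4% over the columns and passed 45% in InjuredPT-A, InjuredPT-B, podocytes, IC-B-2, macrophages, LH-DL and LH-AL-3, and values in these 7 clusters are to be read with the most caution. With 1 mouse per condition no difference between conditions was tested, and every value describes these mice only.

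Promoter sequence (RefSeq, GRCm38.p6, the 250 bases before a transcript start, 5′ to 3′ on the gene's strand) was held for Cdh6 and Ctnnb1. They are shown because these were the only 2 members with a window. Cdh6 reached a level of 0.5 in the loop of Henle only and Ctnnb1 reached it in every cluster. Capitals mark matches, on either strand, to the GC box GGGCGG and the CACCC box CCACCC, motif letters of the Sp and Krüppel-like factor family. The Cdh6 window lies at chr15:13173676-13173925 on the minus strand and the Ctnnb1 window at chr9:120933150-120933399 on the plus strand. A second Ctnnb1 window, before a later transcript start, lies at chr9:120933328-120933577, overlaps the first and is described without its letters.
Cdh6: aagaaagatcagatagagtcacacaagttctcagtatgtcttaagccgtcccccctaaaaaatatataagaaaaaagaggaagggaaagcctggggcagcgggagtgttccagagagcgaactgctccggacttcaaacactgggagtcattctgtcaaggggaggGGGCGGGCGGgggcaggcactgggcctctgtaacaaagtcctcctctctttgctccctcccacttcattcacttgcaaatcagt
Ctnnb1: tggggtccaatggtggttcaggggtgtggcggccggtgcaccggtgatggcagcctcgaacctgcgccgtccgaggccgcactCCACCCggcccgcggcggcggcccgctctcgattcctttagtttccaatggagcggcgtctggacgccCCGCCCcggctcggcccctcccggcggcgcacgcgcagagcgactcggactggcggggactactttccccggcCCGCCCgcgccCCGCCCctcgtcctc
The Cdh6 window held 51.2% GC and 2 overlapping GC boxes. The first Ctnnb1 window held 74.8% GC, more than 95.8% of 32851 promoter windows, with 3 GC boxes, read here as CCGCCC from the opposite strand, and 1 CACCC box. GGGCGG occurs in 32.7% of all windows and CCACCC in 28.1%. The second Ctnnb1 window held 74.4% GC, 2 GC boxes, which lie in the overlap, and no CACCC box. TATAAA, which 12.4% of windows hold, occurred once there, at base 131, and in neither of the windows shown. None of these windows, searched on both strands, held the E-box CAGGTG (17.2% of windows), the AP-1 motif TGANTCA (6.75%) or the TCF motif ATCAAAG (3.21%). These are letter matches, not sites. Among the members, Cdh11, Cdh16 and Cdh1 lie on chromosome 8 of GRCm38, at 102632095 to 102785642, 104601911 to 104624396 and 106603351 to 106670246.

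Cdh1 separated the distal nephron from the proximal tubule. Its mean over the 10 LH-AL, distal and intercalated clusters was 5.07 in the Control mouse, 4.43 in Control AAI, 4.16 in hKLF6 OE and 4.67 in hKLF6 OE AAI. In the 5 normal proximal tubule clusters it was 0.793, 0.677, 0.791 and 0.617, so the distal means of all 4 mice lay above all proximal ones. The highest clusters were IC-B-2 (5.85 to 6.99 over the 4 mice) and CD_PC (5.73 to 7.13), followed by CNT (4.69 to 6.15) and DCT (4.89 to 5.37). Within the proximal tubule, Cdh1 was higher in S3 (0.979, 0.816, 0.995 and 0.834) than in S1 to S2 (0.514, 0.469, 0.485 and 0.291) in each of the 4 mice, as a mean over clusters. Single clusters crossed, since PT-S3-2 lay below PT-S1-S2-2 in the Control AAI mouse (0.534 and 0.69) and the hKLF6 OE mouse (0.712 and 0.754). PT-S1-S2-1 had the lowest mean of all clusters, at 0.217 to 0.331. The mean over EC-2, mesangial cells, podocytes and macrophages, which should lack E-cadherin, was 0.515. EC-1, endothelial by the study's name, held 1.31 to 1.64, above every normal proximal tubule value. Its identity is uncertain, since Flt1, Pecam1, Emcn and Kdr were all highest in EC-2 and next highest in macrophages. The S3 mean of 0.906 lay above 0.515 but under EC-1, and the S1 to S2 mean of 0.44 under both. With no secure floor, neither the S1 to S2 nor the S3 level is read as expression. In the order of clusters by mean, 2 of 22 pairs of neighbors did not overlap over the 4 mice.

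Cdh2 was a gene of few clusters. It was highest in LH-DL, at 3.15 (Control), 1.98 (Control AAI), 0.824 (hKLF6 OE) and 1.53 (hKLF6 OE AAI), a wide spread in a cluster with up to 60.7% of genes at 0. The next were PT-S3-2, at 0.811 to 0.973, and PT-S1-S2-1, at 0.666 to 0.986. Other proximal tubule clusters were low, with PT-S3-1 at 0.0182 to 0.065, so Cdh2 did not follow the division of S1 to S2 from S3. PT-S1-S2-1, lowest for Cdh1, ranked 3 of 23 for Cdh2. Over the 23 cluster means Cdh1 and Cdh2 had a Pearson r of -0.20 on the log2 scale, where all points share the same 4 libraries.

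Cdh6 reached 0.5 in any mouse in 4 of 23 clusters, all of the loop of Henle. LH-DL held 3.14, 6.79, 2.53 and 7.55 in the Control, Control AAI, hKLF6 OE and hKLF6 OE AAI mice. LH-AL-3 held 1.54, 4, 3.79 and 3.53. LH-AL-2 (1.07 to 2.24) and LH-AL-1 (0.306 to 1.18) followed, and the other 19 cluster means were at most 0.235. Neighbors in this order overlapped in every pair.

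Cdh11 reached 0.5 in 3 clusters. In mesangial cells it was 0.875, 2.59, 0.769 and 2.03 in the same order of mice, and in LH-DL 0.647, 2.34, 0.965 and 0.343. A value of 0.524 in CD_PC of the hKLF6 OE AAI mouse was the only other. The genes most like Cdh11 over clusters were Gpc6 (r = 0.976), Pdgfrb (r = 0.968), the receptor that marks pericytes and mesangial cells, and Gm29683 (r = 0.966), among 5069 genes with a cluster mean of at least 1. Their Spearman values were lower, at 0.353, 0.636 and 0.492.

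Cdh16 was the broadest cadherin, at 0.5 or more in all 23 clusters of all 4 mice. CD_PC led with 3.99, 2.49, 5.72 and 2.67, and LH-AL-3 (1.66 to 4.33) and CNT (2.14 to 3.42) followed. Normal proximal tubule held 1.26, 1.02, 1.31 and 0.899. EC-2, mesangial cells, podocytes and macrophages, which are not tubule epithelium, held 1.25, 1.52, 1.99 and 0.788 on average, and EC-1 held 1.64, 1.65, 1.45 and 0.947. Proximal tubule values of Cdh16 therefore lay at the level of clusters that should lack it and are not read as expression. Cdh1 and Cdh16 had the highest r among the members, 0.70.

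Ctnnb1 reached 0.5 in some mouse in all 23 clusters, with a mean of 0.849 in normal proximal tubule and 0.9 in the distal, LH-AL and intercalated clusters. InjuredPT-A ranked first, at 1.12 (Control), 3.05 (Control AAI), 2.17 (hKLF6 OE) and 2.34 (hKLF6 OE AAI), then mesangial cells at 1.81 to 2.3 and EC-2 at 1.44 to 2.14. In the order of the mice without AAI, mesangial cells led and InjuredPT-A ranked 3.

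**Figure D1:**
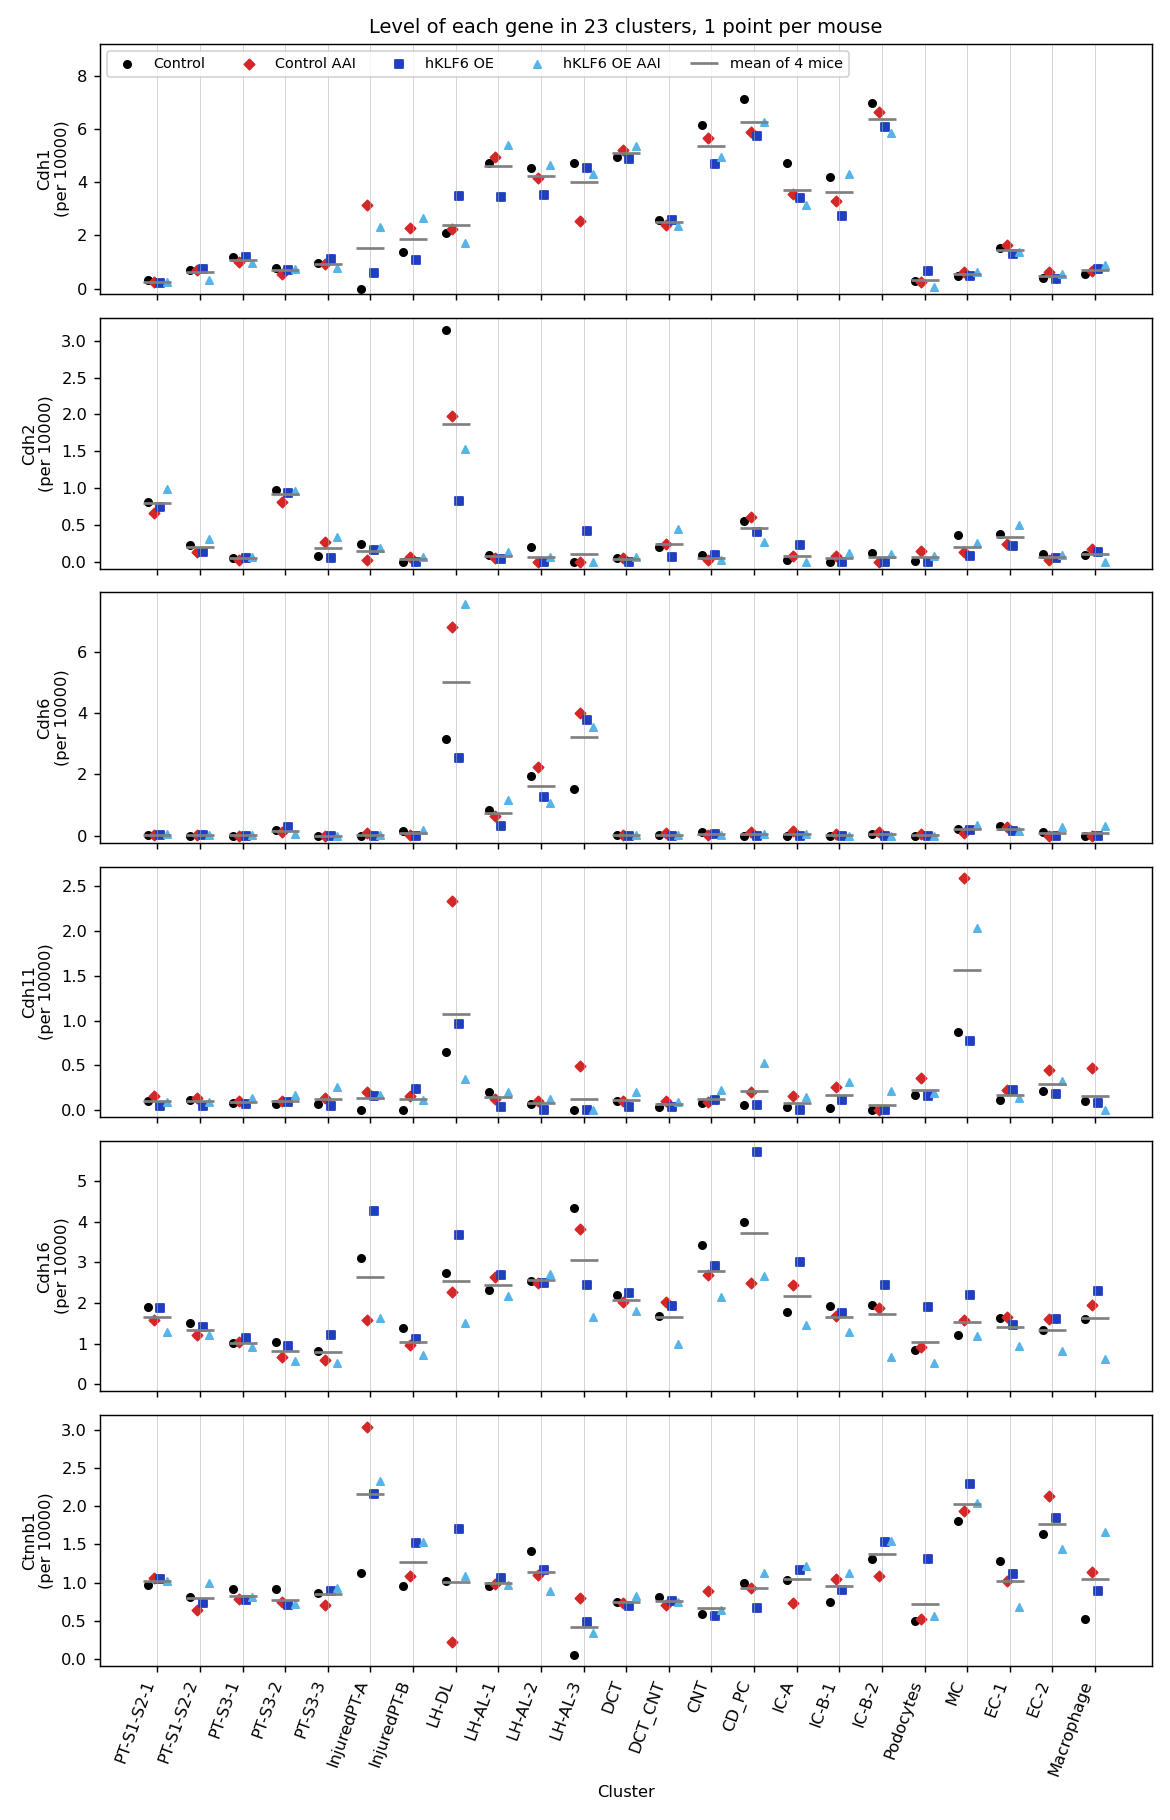
Level of the 6 genes (mean normalized expression per 10000) in 23 clusters, with 1 point per mouse and a gray bar at the mean of the 4 mice. Cdh1 is high from LH-AL to the intercalated cells, Cdh6 is high in LH-DL and LH-AL, Cdh11 in mesangial cells and LH-DL, and Cdh16 lies above 0.5 in every cluster.

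Genes with the most similar pattern were named for the other members by the same measure. For Cdh1 they were Tmprss2 (r = 0.947), a membrane serine protease, Grhl2 (r = 0.919), a transcription factor of epithelia that binds the Cdh1 gene, and Epb41l1 (r = 0.914). For Cdh6 they were Tenm2 (r = 0.962), an adhesion receptor, Slc1a3 (r = 0.851) and Sytl2 (r = 0.844), with Spearman values from 0.594 to 0.744. For Cdh16 they were Adgrg1 (r = 0.885), Wsb1 (r = 0.862) and 1700011H14Rik (r = 0.862). For Cdh2, Hs6st2 (r = 0.841), 4933405D12Rik (r = 0.761) and Corin (r = 0.761) led, with Spearman values from 0.219 to 0.586. For Ctnnb1 they were Rpl27a (r = 0.922), Uqcr10 (r = 0.915) and Hsp90ab1 (r = 0.910), which encode a ribosomal protein, a respiratory chain subunit and a chaperone. None of those 3 stayed among the 3 most alike in the mice without AAI.

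To ask how AAI bore on these genes, the AAI-treated mouse was compared with the untreated mouse of its genotype in each cluster, as a difference of log2(value + 1). A gene passed when the larger value was at least 0.5 and a difference of 0.2 or more in size was called higher or lower. This scale understates changes of low genes. Each mouse also enters a comparison of genotypes, so the sets of comparisons share mice. In control mice 77 of 138 member and cluster pairs passed, of which 15 were higher and 14 lower, where 27.6% of all gene and cluster pairs were higher and 25.2% lower. In hKLF6 OE mice 77 passed, with 13 higher and 29 lower, where the background was 31.6% and 26.2%. In both genotypes together 75 pairs passed and 5 were higher and 7 lower in both, against a background of 13% and 9.75%. The 5 were Cdh1 in both injured clusters, Cdh6 in LH-DL, Cdh11 in mesangial cells and Ctnnb1 in macrophages. The Cdh1 pair in InjuredPT-B was among the values that chose the gene. The 7 were Cdh16 in PT-S3-2, PT-S3-3, InjuredPT-A, InjuredPT-B, CNT and CD_PC, and Ctnnb1 in LH-DL. Cdh16 in PT-S3-2 and PT-S3-3 is not read as expression, as stated above. In InjuredPT-B, at 0.732 to 1.38, it lay within the range of the normal proximal tubule clusters of each mouse. In InjuredPT-A Cdh16 went from 3.11 to 1.57 in control and from 4.26 to 1.62 in hKLF6 OE mice. The LH-AL markers there summed to 23.5 and 33.7 without and 10.3 and 13.9 with AAI, and their part was not tested. Without the 7 sparse clusters 1 pair was higher, Cdh11 in mesangial cells, and 4 were lower.

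**Figure D2:**
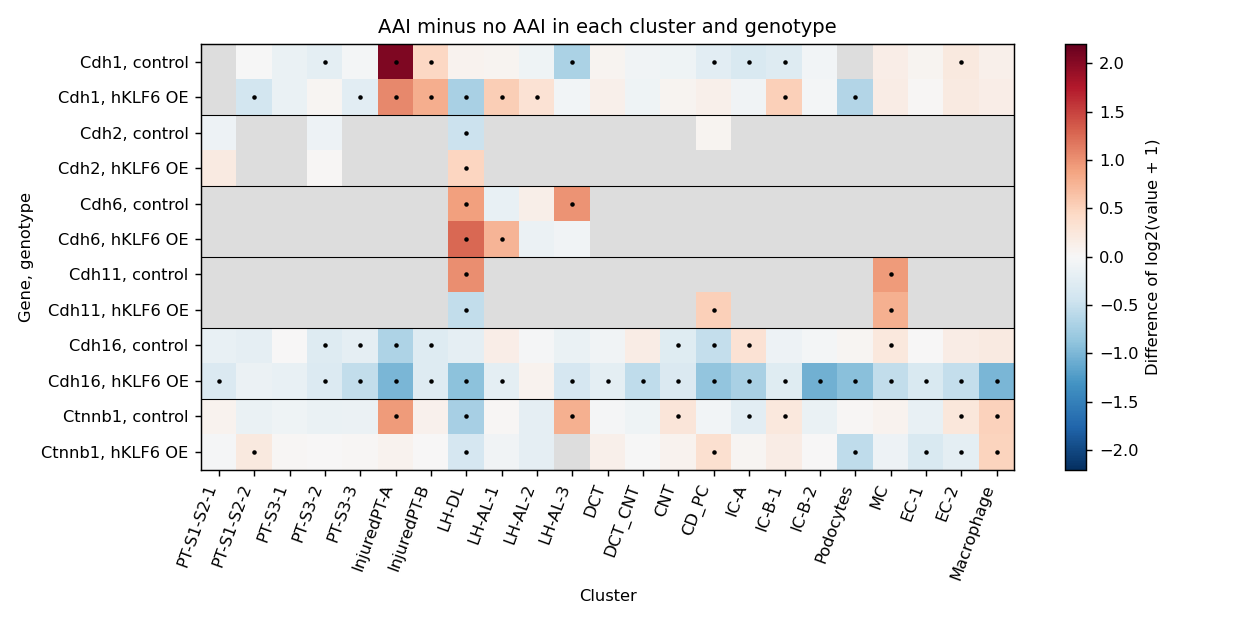
Difference of log2(value + 1) between the AAI-treated and the untreated mouse, by cluster, for each gene and genotype. Gray cells did not pass the minimum of 0.5 and dots mark differences of at least 0.2; Cdh16 in hKLF6 OE is lower in 20 of 23 clusters and Cdh1 is higher in both injured clusters in both genotypes.

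Cdh1 was at 0 and 3.16 without and with AAI in InjuredPT-A of control mice, and at 0.601 and 2.33 in hKLF6 OE mice. In InjuredPT-B it was at 1.38 and 2.27 in control and at 1.09 and 2.65 in hKLF6 OE mice, differences of 0.46 and 0.80. The InjuredPT-B values were among those that chose the gene. Both AAI-treated mice lay above both untreated mice in each injured cluster. Many genes did the same there: of the genes that passed in both genotypes, 37.2% were higher and 19.7% lower in both in InjuredPT-A, and 25% and 14.4% in InjuredPT-B. The Cdh1 differences ranked at percentiles 99.3 and 94.6 in InjuredPT-A. Those in InjuredPT-B, 82.1 and 92.3, only describe values that chose the gene. The sparse side was the untreated one. In InjuredPT-A 62.6% (Control) and 40.8% (hKLF6 OE) of genes were at 0 without AAI, and 22.5% and 22.2% with it. In InjuredPT-B these shares were 51.3% and 55.7% without and 27% and 29.7% with AAI. The untreated Cdh1 values, among them the 0, therefore rest on the thinner columns. They did not exceed 1.64, the highest value of EC-1, whose endothelial identity is uncertain, and the AAI-treated ones did. Elsewhere Cdh1 was higher in 1 further cluster and lower in 5 in control mice, and higher in 3 further and lower in 4 in hKLF6 OE mice, with no further cluster called the same way in both. Markers of the clusters with much Cdh1 were mixed. In InjuredPT-A the sum of the 4 LH-AL markers was 23.5 and 33.7 without AAI and 10.3 and 13.9 with it, and those of DCT, CNT, CD_PC and IC-A were also lower with AAI in both genotypes. The 3 markers of IC-B, which includes the cluster with the highest Cdh1, went with Cdh1, from 0 to 0.319 in control and from 0.427 to 0.475 in hKLF6 OE mice. In InjuredPT-B they went from 0 to 0.199 and from 0.137 to 0.235, where normal proximal tubule of the AAI-treated mice held 0.189 and 0.18. There the LH-AL markers were at 9.87 and 6.32 without and 6.77 and 6.59 with AAI, and the CNT markers at 2.7 and 1.67 without and 1.9 and 3.26 with it. The part of these cells in the Cdh1 result was not tested. In normal proximal tubule, Cdh1 differed by -0.10 in control and -0.15 in hKLF6 OE mice and was not called.

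Cdh6 was higher with AAI in LH-DL in both genotypes, by 0.91 (3.14 and 6.79) and 1.27 (2.53 and 7.55). Both AAI-treated values exceeded both untreated values. Of all genes that passed in LH-DL in both genotypes, 16% were higher and 13.9% lower in both, and the Cdh6 differences ranked at percentiles 94.1 and 98.5 of genes in their mice. The 4 LH-DL markers summed to 22.9 to 24.2, most of it Tshz2 (13.6 to 17.6), which is not highest in LH-DL. Slc14a2 went from 0 to 0.869 in control and from 1.97 to 0 in hKLF6 OE mice, and Bst1 from 1.08 to 2.49 and from 2.05 to 0.573, in opposite directions. Other cell types' markers moved too: the 3 podocyte markers summed to 2.76 and 0.587 without and 7.77 and 6.84 with AAI, the 4 injury markers to 2.55 and 1.14 without and 5.41 and 4.82 with it, and the 3 DCT markers to 1.12 and 2.89 without and 3.09 and 10.1 with it. Most of the injury sum was Polr2a, at 2.2 and 1.14 without and 4.92 and 4.28 with AAI. Cxcl1 was at 0 without and at 0.3 and 0.405 with AAI. Krt20 was at 0 in all 4 mice, and Havcr1 went from 0.357 to 0.191 in control and from 0 to 0.134 in hKLF6 OE mice. The 3 mesangial markers went from 2.22 and 1.84 to 0.63 and 0.602, and the 3 PT-S1-S2 markers from 22.6 and 17.5 to 12.7 and 12.2. The 4 LH-AL markers, of the other clusters with Cdh6, moved from 9.48 to 13.7 in control and from 16.4 to 7.9 in hKLF6 OE mice. Podocytes held Cdh6 at 0 to 0.0508 and the injured clusters at 0 to 0.182. The part of any of these cells in the Cdh6 result was not tested. The genes most like Cdh6 over clusters had opposite signs in the 2 genotypes: Tenm2 differed by -0.86 in control and 1.86 in hKLF6 OE mice, Sytl2 by -1.49 and 0.52, and Slc1a3 by 0.14 and -0.78.

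Cdh11 was higher with AAI in mesangial cells by 0.94 in control and 0.78 in hKLF6 OE mice, at percentiles 99.2 and 96.6, where 14.7% of genes that passed were higher and 8.79% lower in both. Its closest genes gave smaller or opposite differences: Gpc6 -0.62 and -0.22, Pdgfrb -0.39 and 0.10, and Gm29683 -0.23 and 0.31. The 3 mesangial markers summed to 3.79 and 3.34 without and 3.96 and 2.83 with AAI. Of these only Pdgfrb was highest in this cluster, while Itga8 was highest in macrophages (1.19) and Gata3 in CD_PC (2.94). The cluster's name is thus uncertain. Injury markers in this cluster summed to 1.22 and 1.09 without and 6.31 and 5.31 with AAI, and their part was not tested. Of the markers of LH-DL, the other cluster with Cdh11, Slc14a2 was at 0 in mesangial cells of all 4 mice and Bst1 at 0.0239 or less. Tshz2, which is highest in mesangial cells, went from 16.8 to 20.4 in control and from 14.4 to 20.7 in hKLF6 OE mice. Aqp1 went from 2.09 to 2.43 and from 2.86 to 2.48. Injured proximal tubule held Cdh11 at 0 to 0.233. The part of LH-DL and injured tubule cells in the Cdh11 result was not tested. Counting differences of any size, Cdh11 was higher with AAI in 21 of 23 clusters of control and 18 of hKLF6 OE mice, but all clusters other than MC, LH-DL and CD_PC were under 0.5. The share of all genes higher in as many clusters was not computed for it, so this count is not read as a result.

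Cdh16 was lower with AAI in 20 of 23 clusters of hKLF6 OE mice and higher in 0, and in control mice lower in 6 and higher in 2. This count was singled out after its values were seen. Counting any size, it was lower in 22 of 23 clusters of hKLF6 OE mice, and 7.73% of the 2056 genes that passed in every cluster were lower in as many. In control mice it was lower in 14 of 23, where 27% of 2047 genes were lower in as many. In hKLF6 OE mice the lower values included clusters that are not tubule epithelium: macrophages held 2.29 and 0.628, podocytes 1.89 and 0.525, and EC-2 1.6 and 0.813 without and with AAI. In CD_PC, its highest cluster, it differed by -0.52 in control (3.99 and 2.49) and -0.87 in hKLF6 OE mice (5.72 and 2.67), at percentiles 3.71 and 1.39. There Adgrg1 differed by -0.14 and -0.07 and 1700011H14Rik by 0.45 and 0.13, and Wsb1 by 0.26 and 0.15.

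Ctnnb1 gave little that was shared. It was higher with AAI in macrophages of both genotypes (0.516 and 1.14 in control, 0.889 and 1.66 in hKLF6 OE) and lower in LH-DL of both (1.02 and 0.214, 1.7 and 1.09). In InjuredPT-A it differed by 0.93 in control and 0.07 in hKLF6 OE mice. In normal proximal tubule the differences were -0.08 and 0.05. Cdh2 passed in 4 clusters of control and 3 of hKLF6 OE mice and had opposite signs in LH-DL.

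**Figure D3:**
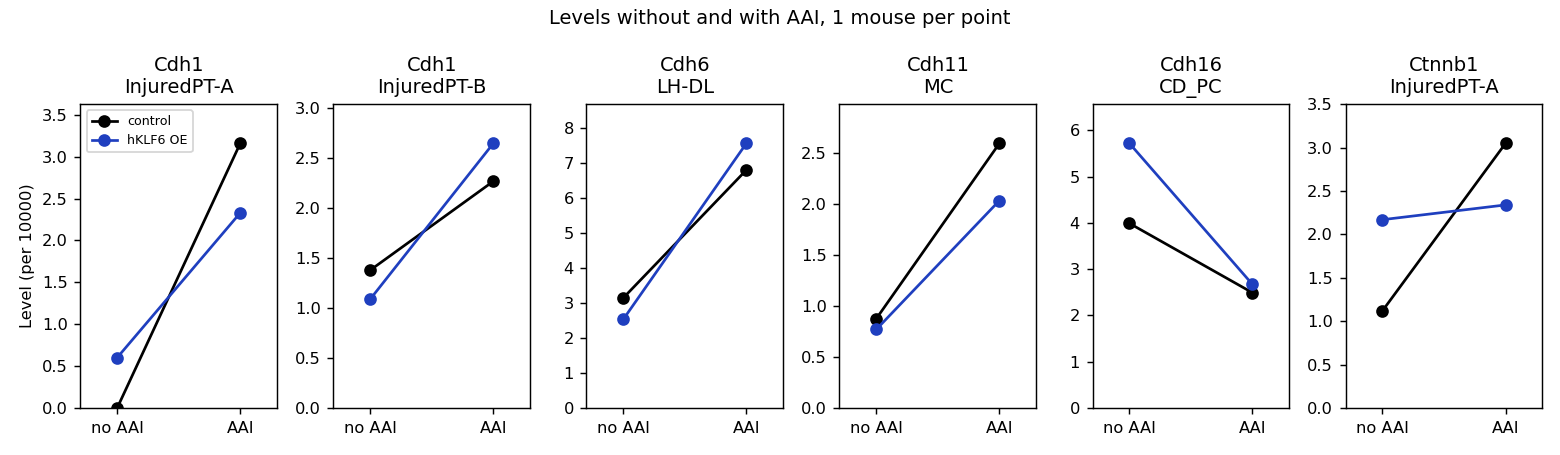
Levels (per 10000) without and with AAI of Cdh1 in both injured clusters, Cdh6 in LH-DL, Cdh11 in mesangial cells, Cdh16 in CD_PC and Ctnnb1 in InjuredPT-A, with 1 mouse per point and lines joining mice of the same genotype. Cdh1, Cdh6 and Cdh11 slope up in both genotypes, Cdh16 in CD_PC slopes down in both, and Ctnnb1 in InjuredPT-A moves from 1.12 to 3.05 in control and from 2.17 to 2.34 in hKLF6 OE mice.

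To ask how hKLF6 OE bore on the same genes, it was compared with control without and with AAI. Without AAI 75 pairs passed, with 20 higher and 12 lower in hKLF6 OE, where 22.4% and 27.4% of all pairs were so. With AAI 78 passed, with 11 higher and 26 lower, where 20.8% and 23.8% were so. Only 3 pairs were higher and 3 lower in both, against 4.8% and 7.03% of all pairs, of 74 that passed in both. Ctnnb1 was higher in InjuredPT-B (0.37 and 0.28), macrophages (0.32 and 0.31) and LH-DL (0.42 and 0.79). Lower were Cdh6 in LH-AL-2 (-0.39 and -0.65), Cdh2 in LH-DL (-1.19 and -0.23) and Cdh16 in LH-AL-3 (-0.63 and -0.85). Without the 7 sparse clusters 0 pairs were higher and 1 lower, Cdh6 in LH-AL-2. Cdh16 was higher in hKLF6 OE in 9 clusters and lower in 1 without AAI, and higher in 0 and lower in 13 with AAI. Counting any size, it was higher in 14 without AAI, and 22% of the 1994 genes that passed in every cluster were higher in as many. With AAI it was lower in 19, where 5.5% of 1910 genes were lower in as many. The same mice gave the AAI counts of Cdh16. In normal proximal tubule all 6 genes differed between genotypes by at most 0.15 in either direction.

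Injured tubule was then set against normal proximal tubule (an unweighted mean over its 5 clusters) within each AAI-treated mouse, since the untreated mice held few injury markers in these clusters. In InjuredPT-A 3 of the 6 genes were higher in both mice and 0 lower, where 43.3% of genes were higher and 27% lower. The same 3 genes, Cdh1, Cdh16 and Ctnnb1, were the ones that passed in both mice. In InjuredPT-B the same 3 genes passed, and 2, Cdh1 and Ctnnb1, were higher and 0 lower, where 23.4% and 13.1% were so. Cdh1 was chosen in part by its values there, so this count is a description.

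Cdh1 was at 3.16 and 2.33 in InjuredPT-A and at 2.27 and 2.65 in InjuredPT-B of the Control AAI and hKLF6 OE AAI mice. Normal proximal tubule of these mice held 0.677 and 0.617, and its highest cluster 1 and 0.975, so every injured value exceeded every normal one. The InjuredPT-B values were among those that chose Cdh1, so their height is a description. The ratios to normal proximal tubule were 4.67 and 3.78 in InjuredPT-A and 3.35 and 4.29 in InjuredPT-B. Against PT-S3 alone they were 3.88 and 2.8, and 2.78 and 3.17. Both remained under the 4.43 and 4.67 of the distal, LH-AL and intercalated clusters in these mice. The genes most like Cdh1 over clusters differed less: Tmprss2 by 0.20 and 0.22 in InjuredPT-A and 0.16 and 0.14 in InjuredPT-B, and Epb41l1 by -0.22 and -0.41 and by 0.20 and 0.26, while Grhl2 stayed at levels of 0.0577 or less. Markers of the distal clusters, where Cdh1 is high, were above normal tubule in InjuredPT-A of these mice: LH-AL markers at 10.3 and 13.9 against 5.76 and 5.27, DCT markers at 2.37 and 3.26 against 1.11 and 1.38, CNT markers at 3.03 and 6.02 against 1.29 and 2.46, and IC-B markers at 0.319 and 0.475 against 0.189 and 0.18. In InjuredPT-B they were nearer to it, at 6.77 and 6.59, 1.33 and 1.19, 1.9 and 3.26, and 0.199 and 0.235. Their part in the Cdh1 result was not tested.

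Cdh2 went the other way in value. In InjuredPT-A it was at 0.0163 and 0.184 and in InjuredPT-B at 0.0672 and 0.0651, where normal proximal tubule held 0.379 and 0.53. It missed the minimum of 0.5 in the control mouse and so was not counted. The log2 differences were -0.44 and -0.37 in InjuredPT-A and -0.37 and -0.52 in InjuredPT-B. Single normal clusters ranged from 0.0182 to 0.811 and from 0.065 to 0.986, so the injured values lay at the low end of the normal clusters, and only InjuredPT-A of the Control AAI mouse lay under all of them.

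For Ctnnb1 the differences were 1.18 and 0.82 in InjuredPT-A and 0.23 and 0.42 in InjuredPT-B. The 0.23 of the Control AAI mouse is 0.11 once centred on the median of all genes and 0.14 against the untreated mouse, so it is no longer called. Its injured values of 3.05 and 2.34, and 1.08 and 1.53, exceeded every normal cluster of the same mouse, whose highest were 1.06 and 1.02. For Cdh16 they were 0.35 and 0.46 in InjuredPT-A, of which the first is 0.13 once centred on the median of all genes, and -0.04 and -0.13 in InjuredPT-B. In the Control AAI mouse PT-S1-S2-1 held as much Cdh16 (1.59) as InjuredPT-A (1.57). EC-2, mesangial cells, podocytes and macrophages, which should lack it, averaged 1.52 in that mouse. In the hKLF6 OE AAI mouse they averaged 0.788, where InjuredPT-A held 1.62. The rise in the Control AAI mouse is therefore not read as expression. Cdh6 and Cdh11 were at 0.201 or less in both injured clusters of these mice.

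**Figure D4:**
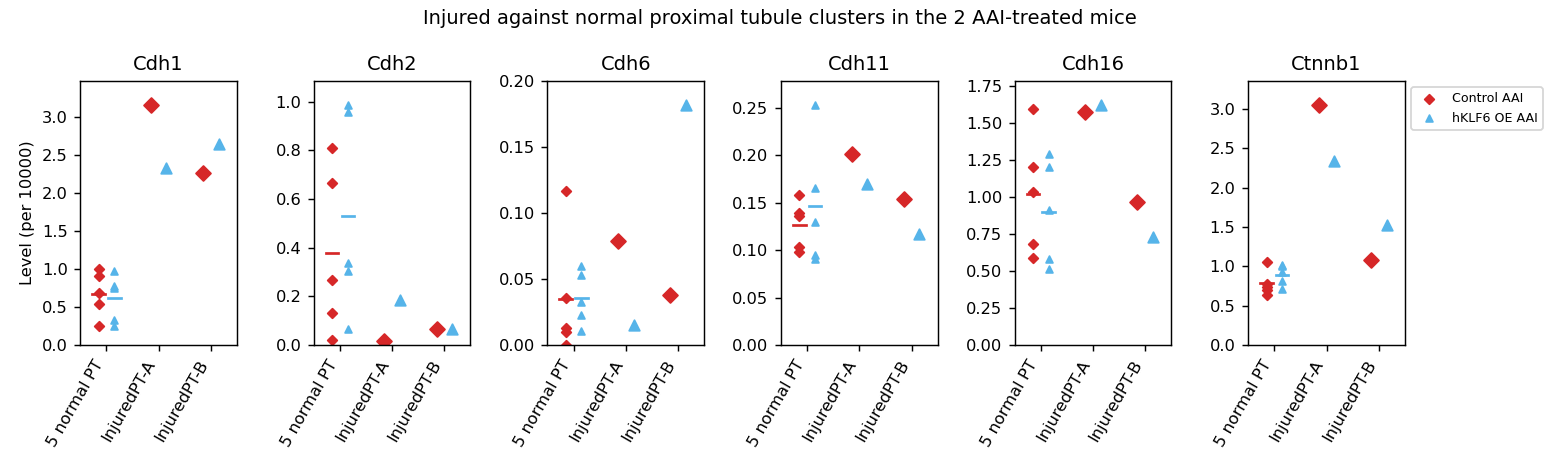
Level (per 10000) of each gene in the 5 normal proximal tubule clusters (small points, bar at their mean) and in InjuredPT-A and InjuredPT-B (large points) of the Control AAI and hKLF6 OE AAI mice. Cdh1 and Ctnnb1 in injured clusters lie above every normal cluster of the same mouse, and Cdh2 lies at the low end of the normal clusters.

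Partners and regulators of these genes were counted from lists written with earlier results known, in the same comparison. Over all genes that passed, the median difference was 0.19 and 0.15 in InjuredPT-A and 0.11 and 0.10 in InjuredPT-B. 43.3% of them were higher and 27% lower in both mice in InjuredPT-A, and 23.4% and 13.1% in InjuredPT-B, and the counts of each list are to be read against these shares.

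Of 20 listed adherens junction partners 13 passed in InjuredPT-A, with 3 higher and 6 lower. Jup, which encodes plakoglobin, the close relative of beta-catenin, was higher by 0.30 and 0.54, and the actin linkers Vcl (0.37 and 0.27) and Tjp1 (0.24 and 0.43) were higher too. Ctnna2, an alpha-catenin, was lower, with differences of -1.91 and -1.57, as were Plekha7 (-1.37 and -1.40) and the scaffold Magi1 (-1.27 and -1.24). The list's medians were 0.02 and -0.21. In InjuredPT-B 12 passed, with 3 higher and 2 lower. Vcl (0.60 and 1.25), Ctnna1 (0.31 and 0.35), the alpha-catenin of epithelia, and Nectin1 (0.40 and 0.27) were higher, and Ctnna2 (-1.54 and -1.66) and Magi1 (-0.52 and -0.49) lower. Plekha7 differed by -0.12 and -0.08 there.

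Of 15 listed transcription factors of kidney epithelia, the 6 that passed were lower in InjuredPT-A, with medians of -0.89 and -1.05, and 4 of 6 in InjuredPT-B, with medians of -0.36 and -0.47. Esrrg was at 3.17 and 5.28 in InjuredPT-A against 40.2 and 40.9 in normal tubule, and Pax8 (-0.92 and -1.26) was lower. In InjuredPT-B Esrrg (-0.58 and -0.79) and Tfcp2l1 (-0.38 and -0.44) were lower.

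Of 10 measured repressors of Cdh1, the 3 that passed were lower in InjuredPT-A: Tcf4 (-0.66 and -0.80), Zeb2 (-0.43 and -0.76) and Zeb1 (-0.34 and -0.24). In InjuredPT-B Zeb2 was higher (0.48 and 0.66), Tcf4 lower (-0.54 and -0.44), and Zeb1 gave -0.21 and 0.22. Cdh1 was higher in both clusters.

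Of 12 destruction complex genes, whose products mark beta-catenin for degradation, 6 passed. Csnk1a1 was higher (0.63 and 0.27) and the ubiquitin ligase subunits Btrc (-0.49 and -0.52) and Fbxw11 (-0.35 and -0.38) lower in InjuredPT-A. In InjuredPT-B Axin1 (0.35 and 0.33), Apc (0.29 and 0.33) and Gsk3b (0.26 and 0.27) were higher and 0 lower. Of 13 nuclear partners of beta-catenin 7 passed in InjuredPT-A. Higher were 2, Pygo2 (0.84 and 0.87) and Bcl9l (0.23 and 0.31), and lower were 4, among them Tcf7l2 (-1.03 and -1.15), Bcl9 (-0.63 and -0.46) and Crebbp (-0.35 and -0.50). In InjuredPT-B 5 passed and only Ep300 was higher (0.21 and 0.22). Of 13 measured targets of beta-catenin and TCF, 2 passed in InjuredPT-A, Ccnd1 (0.38 and 0.45) and Znrf3 (-0.64 and -0.57), in opposite directions, and 1 passed in InjuredPT-B, where neither direction was called.

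Of 15 genes of cadherin shedding and turnover 7 passed, and 3 were higher and 1 lower in InjuredPT-A, a share of higher genes near that of all genes (43.3%). Cbll1 (1.06 and 0.86), which encodes the E-cadherin ubiquitin ligase Hakai, Sh3glb1 (0.63 and 0.65) and Adam10 (0.42 and 0.29), a protease that cleaves cadherins, were higher, and Numb (-0.48 and -0.62) lower. In InjuredPT-B Sh3glb1 (0.24 and 0.27) and Adam10 (0.22 and 0.43) were higher of 6. Of 20 epithelial and mesenchymal genes only Itgb6, an epithelial integrin, passed, lower in InjuredPT-A (-1.37 and -1.75) and not counted in InjuredPT-B (0.18 and 0.11). In normal proximal tubule with AAI, 5 genes over all lists were higher and 1 lower in both genotypes, where 7.66% and 5.83% of all genes were so. The higher ones were Fat1 (0.67 and 0.99), Lmo7, Csnk1a1, Tfcp2l1 and Esrrg, names given after their values were seen.

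**Figure D5:**
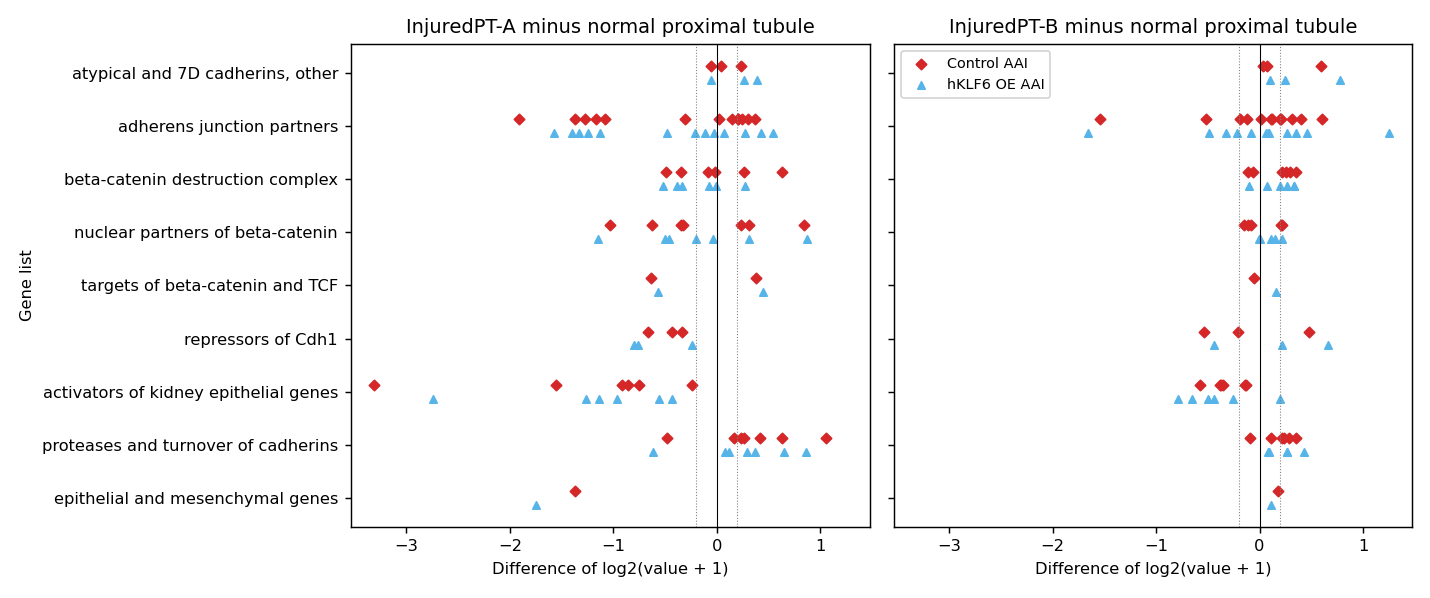
Difference of log2(value + 1) between each injured cluster and normal proximal tubule for the listed genes that passed in both AAI-treated mice, 1 point per gene and mouse, with dotted lines at the threshold of 0.2 in either direction. All 6 activators of kidney epithelial genes lie left of 0 in InjuredPT-A, and adherens junction partners spread to both sides.

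Other cadherins were named where a cluster mean reached 1. None of the 12 other type I and II genes in the table passed in injured tubule. Of the type I and II genes, Cdh3 (P-cadherin) was highest in CD_PC at 1.47, Cdh4 (R-cadherin) in LH-DL at 1.27 and Cdh5 (VE-cadherin, of endothelium) in EC-2 at 1.23. Cdh13, which has no cytoplasmic tail, led in LH-DL with 5.77, and LH-DL was thus the highest cluster for Cdh2, Cdh4, Cdh6 and Cdh13. Among the protocadherins and related genes, Pcdh17 was highest in EC-2 (3.39), Pcdh9 in mesangial cells (1.91), Pcdh7 in PT-S1-S2-1 (1.71), Clstn2 in LH-DL (4.04) and Clstn1 in IC-B-2 (1.19). Fat1, highest in podocytes at 3.07, was the only one of 3 that passed to be higher in injured tubule, by 0.23 and 0.26 in InjuredPT-A and by 0.59 and 0.78 in InjuredPT-B.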

How the data were processed

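Single-nucleus RNA sequencing of renal cortex from 4 mice was used, 1 mouse per condition. The deposited signal values were made by the authors. They counted reads with Cell Ranger on a pre-mRNA reference (mm10), filtered nuclei by genes detected and mitochondrial share, clustered them in Seurat, and averaged normalized expression within each cluster and mouse. The averaging function and any removal of doublets are not given in the sources used here. The table holds 92 columns of 19632 rows, each column summing to 10000. Date-like names (23 rows) were left out. Columns carry cluster numbers only, which were named in the sequence of the study's marker sheets. The table gives no number of nuclei or depth, so no interval could be computed.

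Differences of log2(value + 1) were called at a size of 0.2 where the larger level reached 0.5. No test between conditions was made. The calling step was run on simulated data with large planted changes and little noise. That checks the code only, not the noise of sparse clusters or of single mice. Genes named besides the 6 members are the 3 largest rises and falls per list in each injured cluster, by the smaller change of both mice, other cadherins with a cluster mean of at least 1, and the 3 genes most like each member. Values of 1 gene that this rule names are not reported here; it stays in the counts and medians. The members and lists were chosen with earlier results of these data known. As alternatives, the pseudocount was set to 0.1, the minimum was dropped or set to 2, and the threshold was set to 0.5. Others were centring on the median of all genes, PT-S3 or the untreated mouse as the reference, other orders and Spearman's rho. Leaving out the 7 sparse clusters was added after the data were seen, as were the counts shared by both genotypes and those of Cdh16. Python 3.11.15, numpy 2.4.6, pandas 2.3.3 and matplotlib 3.10.9 were used.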

Additional observations from a re-analysis of the deposited data

Results flagged for a closer look

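In 6 member and cluster pairs the AAI-treated mouse was higher than the untreated mouse in 1 genotype and lower in the other, by at least 0.2 each on the log2(value + 1) scale. With 1 mouse per condition the difference between genotypes was not tested. For Cdh2 in LH-DL the change was -0.48 in control (3.15 to 1.98) and 0.47 in hKLF6 OE mice (0.824 to 1.53), a gap of -0.95. For Cdh11 in the same cluster it was 1.02 (0.647 to 2.34) and -0.55 (0.965 to 0.343), a gap of 1.57. Cdh16 gave 0.31 (1.78 to 2.44) and -0.71 (3 to 1.45) in IC-A, a gap of 1.02, and 0.23 (1.21 to 1.59) and -0.55 (2.19 to 1.18) in mesangial cells, a gap of 0.77. Cdh1 in IC-B-1 gave -0.28 (4.19 to 3.28) and 0.52 (2.72 to 4.33), a gap of -0.80. Ctnnb1 in EC-2 gave 0.25 (1.64 to 2.14) and -0.22 (1.85 to 1.44), a gap of 0.47. LH-DL is among the clusters with the most genes at 0.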

How the results depend on the processing

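No paired analysis was possible because each condition has 1 mouse. No difference past the threshold changed sign under an alternative that was run. Of the recomputed counts, 81 stayed within 1.5 times the count reported and 69 did not, mostly under limits that change what can be counted. Counts are given as higher and lower.

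For AAI in control mice (15 and 14), a minimum of 2 gave 9 and 8, a threshold of 0.5 gave 7 and 4, and the 16 less sparse clusters gave 7 and 9. No filter gave 24 higher, and a pseudocount of 0.1 gave 28 lower. For AAI in hKLF6 OE mice (13 and 29), a minimum of 2 gave 7 and 12, a threshold of 0.5 gave 8 and 15, the less sparse clusters gave 8 and 17, and no filter gave 26 higher. In both genotypes (5 and 7), a pseudocount of 0.1 gave 9 and 13, a threshold of 0.5 gave 3 and 2, the less sparse clusters gave 1 and 4, and a minimum of 2 gave 3 lower. The pair left among the higher ones there is Cdh11 in mesangial cells.

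For hKLF6 OE without AAI (20 and 12), a minimum of 2 gave 11 higher, a threshold of 0.5 gave 8 and 3, the less sparse clusters gave 5 higher, and a pseudocount of 0.1 gave 21 lower. With AAI (11 and 26), a minimum of 2 gave 2 and 13, a threshold of 0.5 gave 2 and 7, and the less sparse clusters gave 6 and 15. A pseudocount of 0.1 gave 17 higher and no filter 19. With and without AAI (3 and 3), a pseudocount of 0.1 gave 5 and 8, and a minimum of 2, a threshold of 0.5 and the less sparse clusters each gave 0 and 1.

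Cdh16 was lower with AAI in 20 clusters of hKLF6 OE mice, in 11 with a minimum of 2 and with a threshold of 0.5, and in 13 of the 16 less sparse clusters. In control mice (6) it was lower in 3 and 2 under the former settings.

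In InjuredPT-A, 0 members were lower (1, Cdh2, with no filter). Listed genes (11 and 24) came to 1 higher with a minimum of 2, to 3 and 14 with a threshold of 0.5, and to 3 higher after centring. In InjuredPT-B, 2 members were higher, and 1 with a minimum of 2, a threshold of 0.5, centring or the untreated mouse as the reference, where Cdh1 remained each time and Ctnnb1 did not. Cdh1 was chosen in part by its values in this cluster. Members lower (0) came to 1 with no filter (Cdh2) and with the untreated mouse as the reference (Cdh16). Listed genes (11 and 7) came to 5 higher with a minimum of 2, to 2 and 2 with a threshold of 0.5, and to 4 and 11 after centring. In normal proximal tubule with AAI, listed genes (5 and 1) came to 11 and 2 with a pseudocount of 0.1, 1 higher with a threshold of 0.5, and 2 lower with no filter or after centring.

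Cdh16 in InjuredPT-A of the Control AAI mouse came to 0.13 after centring and 0.19 against the untreated mouse, both under the threshold, and its difference in InjuredPT-B of hKLF6 OE AAI (-0.13) came to 0.05 against PT-S3. By Spearman's rho none of the 3 genes most like Cdh2, Cdh6 or Cdh11 stayed among the first 3.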
